A study of Saccharomyces cerevisiae with 12 samples.

Results

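The genes described here are 9 enzymes of de novo purine synthesis in Saccharomyces cerevisiae, budding yeast: ADE4, ADE8, ADE6, ADE2, ADE1, ADE13, ADE16, ADE17 and ADE12. They were taken by gene symbol from the 5449 genes with a probe set on the array; each had 1 probe set, so that no choice of the brightest was needed. ADE17 was taken to have been selected on its lower signal at 0.25% than at 2% glucose in these arrays. The other 8 were taken as added for their place in the pathway, though with earlier results of these data known. Statements below on the arrays that chose ADE17 rest on this reading. The comparison of 0.25% with 2% glucose is therefore given for all 9 genes as a description, with no p-value and with counts from which nothing is read. ADE5,7, the bifunctional enzyme of early pathway steps, has no listed probe set and was not analysed here.

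Yeast was grown at 2%, 1%, 0.5% or 0.25% glucose, and total RNA of 3 biological replicates per level was extracted with Trizol LS, labelled with biotin and read on 12 one-colour Affymetrix arrays. Glucose is the only stated difference between the groups. The labels name no strain, genotype or time of sampling, and their only hint of growth phase is the word log in the sample titles. Signals are linear intensities that the authors had scaled to a common trimmed mean of 500 on each array, which hides any difference in RNA content per cell.

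Purine nucleotides are built step by step on ribose phosphate, which is activated as phosphoribosyl pyrophosphate. Ade4 commits it to the pathway, the next enzymes assemble the imidazole ring, and either of the isozymes Ade16 and Ade17 closes the purine ring to give IMP. Ade12 and Ade13 turn IMP into AMP, while IMP dehydrogenase and GMP synthase lead to GMP. In yeast the activators Bas1 and Pho2 drive most ADE genes when adenine is scarce, and histidine synthesis releases AICAR, the substrate of Ade16 and Ade17. Lower transcript levels of an enzyme do not by themselves say how much of its product is made.

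All 9 genes were well above the dim end of the array. Their mean signals lay between percentile 72.9 (ADE4) and percentile 94.8 (ADE6) of all genes, and all 9 were among the 4086 genes tested. ADE2, the gene whose loss turns yeast colonies red, was thus read in every sample. Signals of different probe sets depend on the probes and are not compared with each other; each gene is compared with itself across glucose levels.

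ADE17, which encodes one of the isozymes that close the purine ring, read 1786, 1650 and 1590 on the 3 arrays at 2% glucose. It read 1417, 1417 and 1224 at 1%, then 1062, 1089 and 1048 at 0.5% and 1044, 1000 and 982 at 0.25%. The level means and SDs (n = 3) were 1675 ± 101, 1353 ± 112, 1066 ± 20.7 and 1009 ± 31.9. No array of a lower glucose level reached an array of a higher one, in any of the 6 pairs of levels.

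On the log2 scale ADE17 was lower than at 2% by a difference of -0.31 at 1% (SE 0.08), -0.65 at 0.5% and -0.73 at 0.25%. The last difference is a 1.66-fold lower signal and the contrast for which the gene was chosen; 11 of the 4086 tested genes had a more negative difference. From 2% to 1% and from 1% to 0.5% the steps were of similar size, -0.31 and -0.34. From 0.5% to 0.25% the step was -0.08, with a 95% interval from -0.24 to 0.08 that includes 0, although the arrays of these levels did not overlap.

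ADE16 encodes the other isozyme, which catalyses the same pair of reactions. Its signals were 1265, 1218 and 1257 at 2% glucose, 1203, 1185 and 1251 at 1%, 1259, 1232 and 1239 at 0.5% and 1272, 1221 and 1261 at 0.25%. The arrays of all 4 levels overlapped. The difference between 0.25% and 2% was 0.01 on the log2 scale with a 95% interval from -0.13 to 0.14, and the level means stayed between 1213 and 1251.

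**Figure D1:**
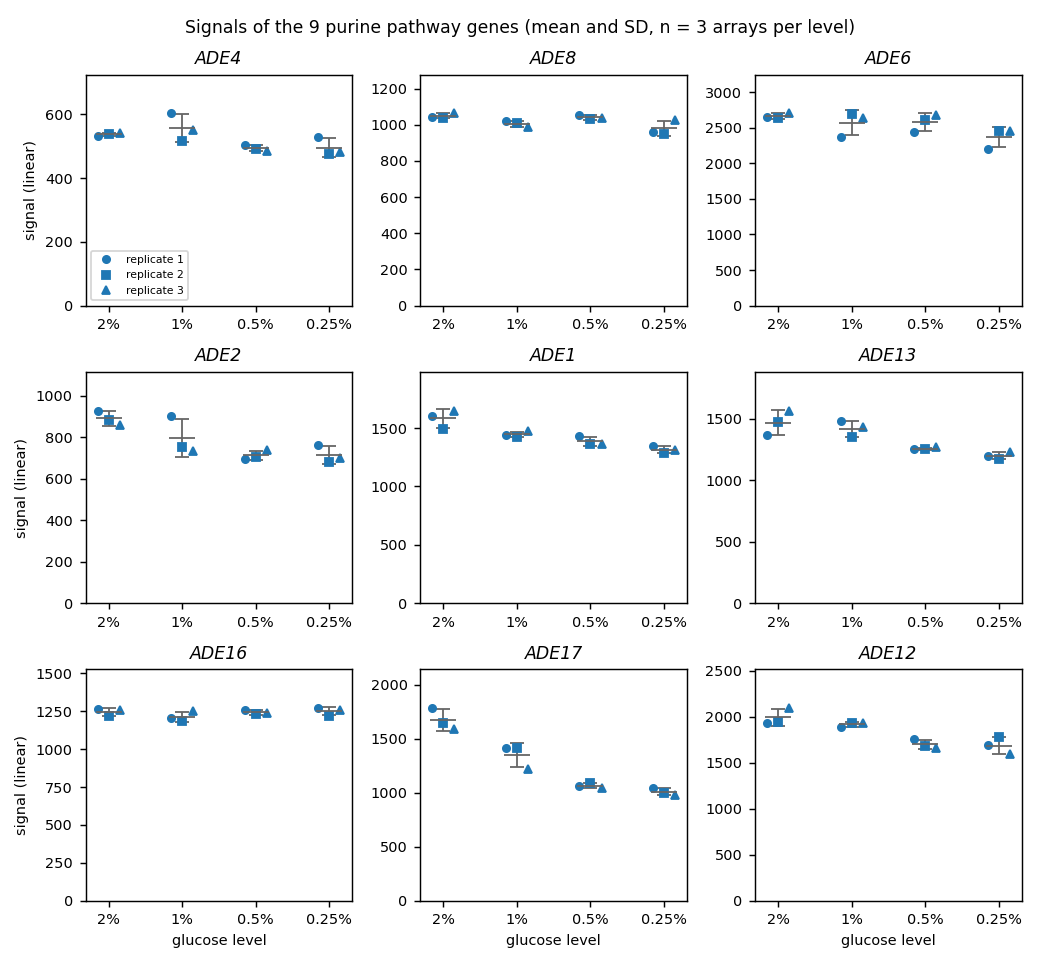
Signal (linear scale, y axis from 0) of each of the 9 purine pathway genes at the 4 glucose levels (x axis), with 1 marker per array, a dash for the mean and bars for the SD (n = 3). The mean of ADE17 goes from 1675 at 2% to 1066 at 0.5% and 1009 at 0.25%, while the means of ADE16 stay between 1213 and 1251.

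The pair was also compared within each array, where a difference in overall brightness cancels. The log2 signal of ADE17 minus that of ADE16 was 0.50, 0.44 and 0.34 on the arrays at 2%, and 0.24, 0.26 and -0.03 at 1%. It was -0.25, -0.18 and -0.24 at 0.5% and -0.29, -0.29 and -0.36 at 0.25%. Only the change of this difference can be read, since its zero point depends on the probes. It moved by -0.27 from 2% to 1%, by -0.38 from 1% to 0.5% and by -0.09 from 0.5% to 0.25%, each time with no overlap between the arrays. The comparison of 0.5% with 1% uses none of the arrays for which ADE17 was chosen, but 3 arrays against 3 cannot give a two-sided exact permutation p below 0.1, so a change of this difference could not pass a threshold of 0.05 by that test.

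**Figure D2:**
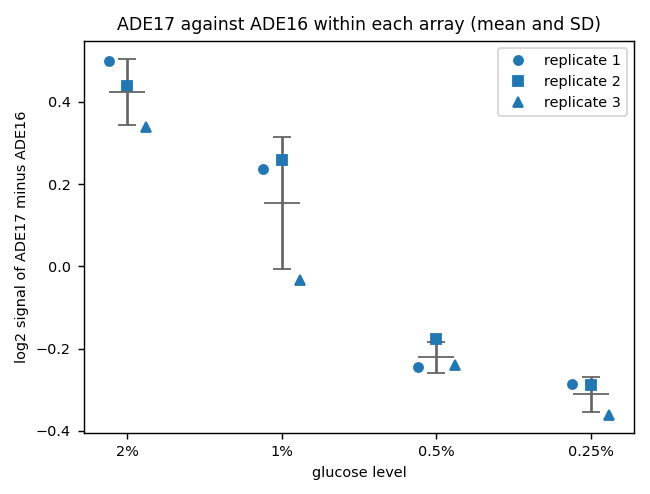
Log2 signal of ADE17 minus that of ADE16 on each array (y axis) at the 4 glucose levels (x axis), with 1 marker per array, a dash for the mean and bars for the SD (n = 3). The mean goes from 0.43 at 2% to 0.15 at 1%, -0.22 at 0.5% and -0.31 at 0.25%.

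ADE4, ADE8 and ADE6, of the early steps, showed small differences between 0.25% and 2% glucose. ADE4, the committing amidotransferase, read 533, 539 and 540 at 2% and 529, 474 and 481 at 0.25%, with the highest value of all on replicate 1 at 1% (604). Its log2 difference between 0.25% and 2% was -0.12 (95% interval -0.29 to 0.05). ADE8, the first of the formyl transfer enzymes, read from 1039 to 1065 at 2% and from 952 to 1029 at 0.25% (-0.10, 95% interval -0.24 to 0.03). ADE6, which adds a nitrogen before the first ring closes, had means of 2663 ± 38.1 at 2% and 2366 ± 141 at 0.25% (SD, n = 3), a difference of -0.17. The arrays at 0.25% were all below those at 2% for these 3 genes.

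Between 0.25% and 2% glucose ADE2, ADE1, ADE13 and ADE12 differed more than ADE4, ADE8 and ADE6. From 1% to 0.5% this order did not hold, with ADE4 at -0.17, ADE13 at -0.18 and ADE1 at -0.06. No pattern by place in the pathway is read from it. ADE2, the carboxylase of the red colony phenotype, read 929, 884 and 860 at 2%, 902, 753 and 735 at 1%, 696, 707 and 737 at 0.5% and 765, 679 and 702 at 0.25%. Replicate 1 at 1% lay with the 2% arrays and the other arrays at 1% lay below them. ADE1, SAICAR synthetase, read 1606, 1494 and 1650 at 2%, from 1424 to 1471 at 1%, from 1361 to 1432 at 0.5% and 1345, 1284 and 1315 at 0.25%. Its 4 level means followed the glucose level, and every 0.25% array lay below every array of the other levels.

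ADE13, adenylosuccinate lyase, which acts both before AICAR and in the last step to AMP, read 1372, 1471 and 1568 at 2% and 1481, 1352 and 1432 at 1%. It was lower at 0.5%, with 1251, 1253 and 1268, and at 0.25%, with 1198, 1175 and 1230. Its 2% and 1% arrays overlapped, and both lay wholly above those of the lower levels. ADE12, adenylosuccinate synthetase, the partner of Ade13 on the way to AMP, had the same division: from 1936 to 2096 at 2%, from 1887 to 1937 at 1%, from 1665 to 1759 at 0.5% and from 1594 to 1779 at 0.25%.

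Against 2% glucose the 0.25% differences of these 4 genes were -0.32 for ADE2, -0.29 for ADE13, -0.27 for ADE1 and -0.24 for ADE12. Each is smaller than that of ADE17. In all, 8 of the 9 genes were lower at 0.25% than at 2%, all 8 with no overlap between the arrays, against 9.62% of all tested genes with non-overlapping lower arrays. The fit placed 3 of the 9 (ADE17, ADE13 and ADE1) under an adjusted p of 0.05 as lower, and 1.13% of all tested genes. ADE17 was selected on this contrast, so nothing is read from these counts. The median over the 9 genes was -0.24, without ADE17 it was -0.21, and over all tested genes -0.02.

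**Figure D3:**
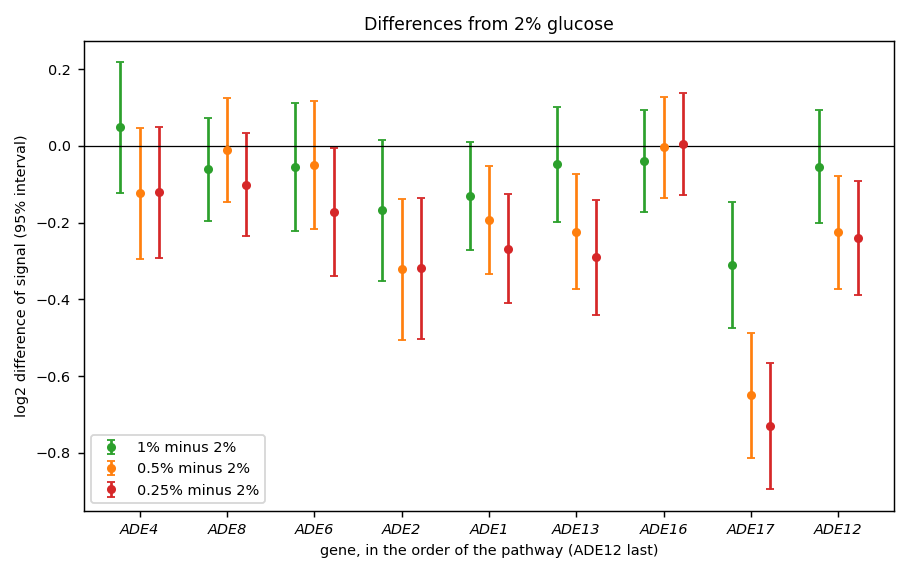
Log2 difference of signal from 2% glucose (y axis) for each of the 9 genes in pathway order (x axis), at 1%, 0.5% and 0.25% glucose, with the 95% interval of the fit (n = 3 arrays per level). All 3 comparisons share the 2% arrays. ADE17 reaches -0.73, ADE2, ADE1, ADE13 and ADE12 lie between -0.32 and -0.24 at 0.25%, and ADE16 lies at 0.01.

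The comparisons of 0.5% and of 1% with 2% glucose share the 2% arrays with the one that chose ADE17. At 0.5%, ADE17 was lower by a difference of -0.65 (SE 0.08, limma adjusted p = 0.00020), 1 of 9 genes called, against 0.343% of all tested genes called lower. With the replicate number as a block the call extended to ADE2 (-0.32, adjusted p = 0.0090), ADE13 (-0.22, 0.034), ADE12 (-0.23, 0.042) and ADE1 (-0.19, 0.045), so that 5 of 9 passed, against 6.34% of all tested genes called lower in that fit. Without the block these 4 genes missed the threshold, with limma adjusted p of 0.085, 0.16, 0.15 and 0.19. At 1% glucose 0 of the 9 genes passed in limma, against 0.245% of all tested genes called. ADE17 alone was under 0.05 before adjustment, 1 of 9 genes against 6.9% of all tested genes.

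These comparisons with 2% run beside a difference in RNA quality measures. In 7 control genes with probe sets at both ends, the 3' end exceeded the 5' end by a mean log2 ratio of 1.28 ± 0.12 (SD, n = 3) on the 2% arrays and by 0.88 to 0.91 at the lower levels. Ribosomal RNA, averaged on the log2 scale over 16 probe sets, stood at 7.66 ± 0.98 on the 2% arrays and from 8.82 to 9.02 at the lower levels. With the ribosomal RNA signal as a covariate ADE17 at 0.5% was at -0.53 (limma adjusted p = 0.0026). The 4 genes called with the block missed the threshold with that covariate in place of the block, with limma adjusted p of 0.47 for ADE2, 0.19 for ADE13, 0.34 for ADE12 and 0.43 for ADE1, and with block and covariate together (limma adjusted p from 0.15 to 0.32). The part of the 3' to 5' ratio in the differences from 2% was not tested.

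The size of the step from 1% to 0.5% glucose, a difference of level means, uses none of the arrays of the choosing contrast. The SEs, interval and p-values below come from fits that include arrays of all levels. The arrays of the choosing contrast therefore enter them, and they are not independent of the choice of ADE17. The 3' to 5' ratio (0.88 and 0.91) and ribosomal RNA signal (8.85 and 9.02) were close at 1% and 0.5%. ADE17 was at -0.34 (SE 0.08, 95% interval -0.50 to -0.18) with no overlap of the arrays. It did not pass over all genes in limma (adjusted p = 0.19), and did with the replicate block (adjusted p = 0.016), as 1 of 9 genes against 0.171% of all tested genes called lower in that fit. ADE17 passed in 3 of 23 alternatives. It missed the threshold with the ribosomal RNA covariate (limma adjusted p = 0.079) and with any single array left out (from 0.093 to 0.92). In limma 0 of the 9 genes passed, against 0.0979% of all tested genes, and 4 were lower at an unadjusted p under 0.05, against 2.06% of all tested genes. Beside ADE17 these were ADE13 (-0.18), ADE4 (-0.17) and ADE12 (-0.17), each with SE from 0.07 to 0.08 and a limma adjusted p of 1.00. ADE2 was at -0.15 and the other 4 members lay between -0.06 and 0.05.

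The comparison of 0.25% with 1% glucose shares the 0.25% arrays with the one that chose ADE17. ADE17 was lower by a difference of -0.42 (SE 0.08, limma adjusted p = 0.013), 1 of 9 genes called, against 0.171% of all tested genes called lower. Leaving out 1% replicate 1 took its limma adjusted p to 0.0501, 1% replicate 2 to 0.097, 0.25% replicate 2 to 0.055 and 0.25% replicate 3 to 0.071, and a fit of these 2 levels by themselves took it to 0.092. ADE13 was at -0.24 and passed with the replicate block (limma adjusted p = 0.047), but not without it (0.19), so that 2 of 9 genes passed in the blocked fit against 0.587% of all tested genes called lower. Between 0.25% and 0.5%, which share those arrays too, 0 of the 9 genes passed in limma and 0 at an unadjusted p under 0.05, against 0.122% of all tested genes called and 3.38% under 0.05 before adjustment. The differences there ran from -0.12 (ADE6) to 0.01 (ADE16).

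The 0.25% and 2% arrays were also set against each other number by number. For ADE17 the 0.25% array was below the 2% array of its number by log2 differences of -0.77, -0.72 and -0.70. For ADE16 these differences were 0.01, 0.00 and 0.00. For the other 7 genes they ran from -0.01 (ADE4, replicate 1) to -0.40 (ADE12, replicate 3). The 0.25% and 2% arrays of ADE17 and of these 7 genes did not overlap, so the signs were fixed and only the sizes are new.

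The related gene lists below were written with earlier results of these data known, so nothing is read from their counts. The rest of purine nucleotide synthesis was described over a list of 6 genes, of which 5 had a probe set and were tested. None passed at 0.25% against 2% glucose (limma, 0 of 5, 2 at an unadjusted p under 0.05), against 4.04% of all tested genes called and 15.8% under 0.05 before adjustment. ADE3, which supplies the one-carbon groups of the pathway, was at -0.08, and GUA1, GMP synthase, at -0.09. Of the IMP dehydrogenases IMD3 was at -0.03, IMD4 at -0.26 and IMD2 at -0.79.

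IMD2, the IMP dehydrogenase gene known to be induced when guanine nucleotides run low, read 207, 169 and 272 at 2%, 180, 111 and 214 at 1%, 102, 83.9 and 166 at 0.5% and 122, 87.1 and 175 at 0.25%. Its levels overlapped, while replicate 2 was the lowest and replicate 3 the highest at each level. It was not called at 0.25% (SE 0.30, limma adjusted p = 0.20) or at 0.5% (-0.92, 0.18). With the replicate block it passed in both (limma adjusted p = 0.00021 and 1.0e-04), and at 0.25% also with the ribosomal RNA covariate (0.038). Its probe set is of a type that can cross-hybridise with related sequences, and IMD2 has close relatives, so the signal may not be from IMD2 alone.

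Of 5 PRS genes, which encode phosphoribosyl pyrophosphate synthetase subunits, 0 passed at 0.25% against 2% (limma, 1 at an unadjusted p under 0.05), and the list median was -0.05. Of all tested genes 4.04% were called in this comparison and 15.8% were under 0.05 before adjustment. Of 8 genes of glycine and one-carbon supply 0 passed and 5 were at an unadjusted p under 0.05, against that 4.04% and 15.8%. The list median was -0.19, against -0.02 over all tested genes. MTD1, a methylenetetrahydrofolate dehydrogenase, was at -0.25, SHM2, the cytosolic serine hydroxymethyltransferase, at -0.24, MIS1, the mitochondrial C1-tetrahydrofolate synthase, at -0.22 and GCV2, a glycine cleavage subunit, at -0.21. With the replicate block MTD1 (limma adjusted p = 0.014), GCV2 (0.026), PRS4 (-0.25, 0.013) and IMD4 (0.048) passed, in a fit that called 10.9% of all tested genes. With the ribosomal RNA covariate in place of the block they missed the threshold (limma adjusted p = 0.66, 0.11, 0.43 and 0.058).

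Of 15 genes of purine salvage and interconversion 13 were tested, 0 passed (limma, 1 at an unadjusted p under 0.05), and the list median was 0.00. The shares of all tested genes for this list and the next were 4.04% called and 15.8% under 0.05 before adjustment. APT2, a paralogue of adenine phosphoribosyltransferase, was at 0.37, AMD1, AMP deaminase, at 0.16, FCY2, the purine-cytosine permease, at -0.17 and HPT1, which salvages hypoxanthine and guanine, at -0.16. GUD1 and ADK2 were too dim to test. Of 9 pyrimidine synthesis genes 7 were tested and 0 passed (limma, 0 at an unadjusted p under 0.05; list median -0.09), with URA4, dihydroorotase, at -0.19. URA3 and URA10 were too dim, and URA3 read from 0.22 to 6.56 on the 12 arrays.

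In histidine synthesis 2 of 7 genes were called lower at 0.25% against 2% glucose, beside 1.13% of all tested genes. This list too was written with earlier results of these data known, so nothing is read from that count. The p-values of its genes may not be independent of that knowledge. The differences of 5 of the 7 were below 0, beside 54.1% of all tested genes, and the list median was -0.11. HIS4, which encodes a trifunctional enzyme and is a known target of Bas1 as well as Gcn4, read 1720, 1861 and 1851 at 2%, from 1640 to 1665 at 1%, from 1406 to 1492 at 0.5% and from 1414 to 1518 at 0.25%. Its difference was -0.32 at 0.25% (SE 0.07, limma adjusted p = 0.013) and -0.31 at 0.5% (0.032). Each level down to 0.5% lay wholly below the level above it. HIS5, histidinol-phosphate aminotransferase, fell by 0.35 at 0.25% (SE 0.09, limma adjusted p = 0.041). The ribosomal RNA signal and 3' to 5' ratio differ in these comparisons too; with the ribosomal RNA covariate the 0.25% values were 0.030 for HIS4 and 0.057 for HIS5 (limma adjusted p). HIS4 at 0.25% missed the threshold when 2% replicate 2 (limma adjusted p = 0.0503), 0.25% replicate 1 (0.060) or 0.25% replicate 3 (0.063) was left out, under median scaling (0.064) and in a fit of the 2 levels by themselves (0.074). At 0.5% it missed it in 10 of 23 alternatives, among them the ribosomal RNA covariate (0.11) and the omission of any single array at 2% or 0.5% (from 0.051 to 0.14) or of 1% replicate 2 (0.053). HIS5 at 0.25% missed it in 13 of 23, among them the omission of any single array at 2% or 0.25% (from 0.073 to 0.16, the highest without 0.25% replicate 3) or of replicate 1 or 2 at 0.5% (0.053 and 0.067).

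Neither tested regulator was called at 0.25% against 2% (limma, 0 of 2, and 0 at an unadjusted p under 0.05). Of all tested genes 4.04% were called and 15.8% were under 0.05 before adjustment. BAS1, the Myb-related activator, read 528, 370 and 274 at 2% and 326, 315 and 256 at 0.25%, with a difference of -0.34 (SE 0.22, limma adjusted p = 0.51), and its 2% arrays overlapped those of every other level. GCN4, the activator of amino acid synthesis genes, was at 0.16 (limma adjusted p = 0.56); it is controlled mainly through translation, which these arrays do not read. PHO2, the homeodomain partner of Bas1, was too dim to test, with means from 103 to 118. At 0.5% against 2% BAS1 was at -0.45 and not called (limma adjusted p = 0.38). It passed there with the replicate block (0.027), in a fit that called 6.34% of all tested genes lower. With the ribosomal RNA covariate in place of the block it missed the threshold (0.99).

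**Figure D4:**
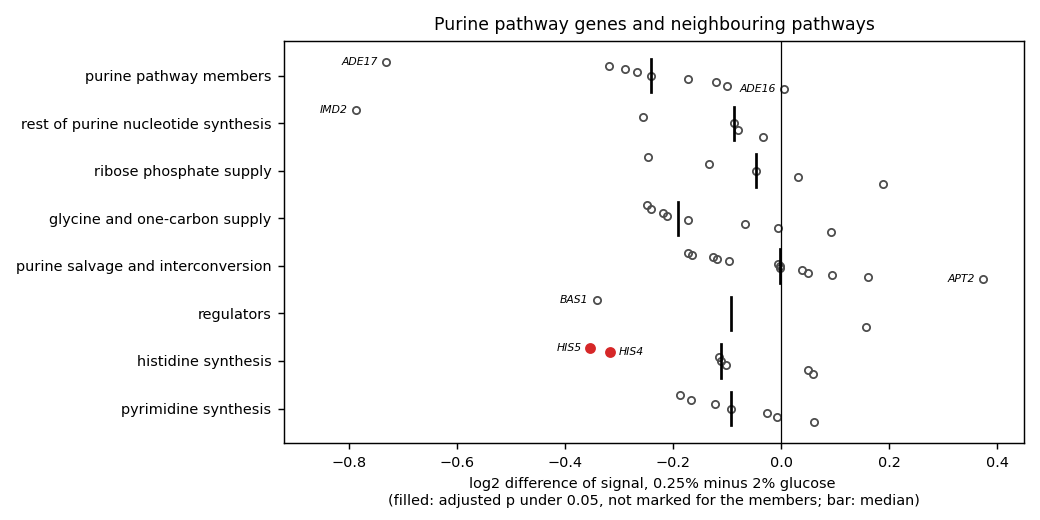
Log2 difference of signal between 0.25% and 2% glucose (x axis) for each tested gene of the purine pathway and 7 related gene lists (y axis); circles are genes, black bars are list medians and filled circles mark genes outside the 9 members with adjusted p under 0.05. The members' median is -0.24, HIS4 and HIS5 are the filled circles, and IMD2 lies at -0.79 with a wide error.

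The genes most like ADE17 were sought among the other 4085 tested genes by the root mean square difference of log2 signals over the 12 arrays, each gene centred on its own mean. The nearest that are no members were TIR3 (0.096), TIR1 (0.097), AGA1 (0.11), HUG1 (0.12) and ANB1 (0.12). TIR1 and TIR3 encode cell wall mannoproteins of hypoxic cells, ANB1 a hypoxic translation factor, AGA1 an agglutinin subunit and HUG1 an inhibitor of ribonucleotide reductase. The mean signal of TIR1 ran from 817 at 2% through 717 and 518 to 461 at 0.25%, and that of TIR3 from 189 through 161 and 127 to 117. Among the members ADE2 came nearest, at rank 19 of 4085 (0.17), then ADE13 at rank 86, ADE12 at 114 and ADE1 at 129. ADE16 was at rank 1851, with a distance of 0.31, as far as ADE17 varied about its own mean (0.30).

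**Figure D5:**
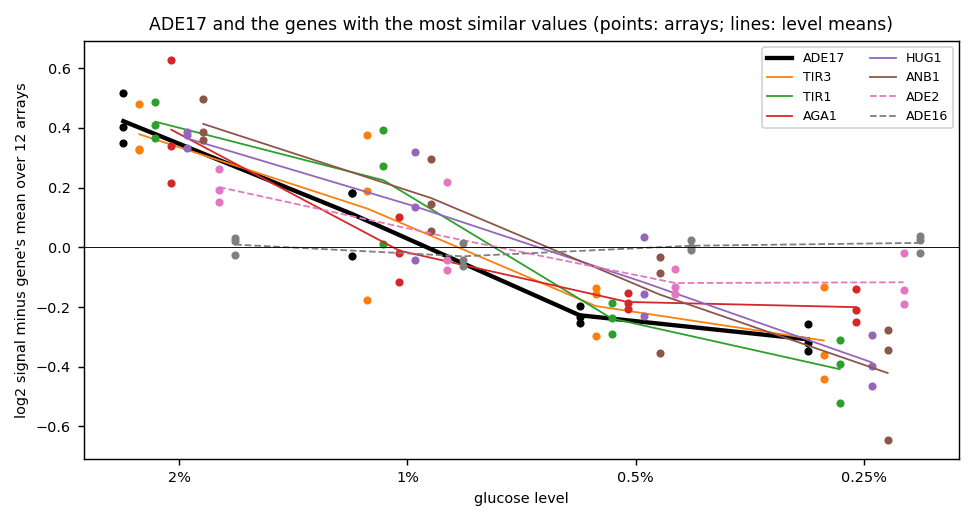
Log2 signal minus each gene's mean over the 12 arrays (y axis) at the 4 glucose levels (x axis) for ADE17, the 5 genes nearest to it and, dashed, ADE2 and ADE16; points are arrays and lines join level means. The 5 nearest genes descend with ADE17, for which likeness they were picked on these same arrays. ADE2 descends less and ADE16 stays near 0.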

How the data were processed

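The deposited values are one-colour array intensities, 1 summarised signal per probe set, which the authors had scaled between arrays: trimming 2% of the non-zero probe sets at either end leaves a mean of 500 on each array. Per the labels, RNA was labelled by the Affymetrix protocol; no label or header names the summarising program. Of 10928 probe sets, 5498 were paired with 1 gene of the organism through the platform annotation and the RefSeq gene table (5449 genes; brightest probe set per gene). Signals were floored at 1 and log2 transformed; genes with a mean at or below percentile 25 were left out, leaving 4086.

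Level means over all 12 arrays were fitted in limma 3.58.1 (R 4.3.3) with eBayes, the prior variance following intensity, and p-values were two-sided with Benjamini-Hochberg adjustment over all tested genes. The script was tested on simulated data. Array number limits precision: the median SE of a difference was 0.11.

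Deviations from level means of same-numbered arrays correlated above 0.1 in 17 of 18 pairs (across genes), the exception lying between 1% and 2%. The numbers were therefore taken to pair the arrays in the other comparisons. Fits with the number as a block stand beside the results given above that they change. At 0.5% against 2% the block also brought PRS4, AAH1, FCY2 and HIS5 under the threshold (limma adjusted p = 0.0099, 0.012, 0.045 and 0.013). With the ribosomal RNA covariate in its place they missed it (0.62, 0.85, 0.96 and 0.14).

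The members and gene lists were chosen with earlier results of these data known. Named genes are all members, the 3 regulators, genes that passed and up to 4 per list with the largest difference, and the 5 nearest to ADE17. Results were recomputed with median scaling, quantile normalization, no dim filter or one at percentile 50, an offset of 16, the mean of probe sets, the block, the 2 compared levels by themselves, a ribosomal RNA covariate, array weights and each array left out.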

Additional observations from a re-analysis of the deposited data

How the results depend on the processing

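Across 23 alternatives no called member changed its direction. The difference of ADE17 stayed called in all 23 at 0.5% against 2% glucose (from -0.69 to -0.53). The alternatives refit the same arrays, and this comparison shares the 2% arrays with the one that chose ADE17. Those calls are therefore not independent of the choice. Counts of called members at 0.25% against 2%, 3 as given above and a description there too, were 5 with quantile normalization, 5 with a dim filter at the median, 5 with the replicate block, 4 with array weights, 2 with median scaling, 2 with the ribosomal RNA covariate, 2 with block and covariate and 1 with the compared levels alone; with 1 array left out they ran from 1 to 4. At 0.5% against 2% the count of 1 became 5 with the replicate block and 4 with array weights, and ran from 1 to 2 with 1 array left out (ADE2 passed without replicate 1 at 1%, limma adjusted p = 0.044). At 1% against 2%, where the numbers did not pair the arrays, it became 1 with the replicate block, and at 0.5% against 1% it became 1 with the replicate block, 1 with array weights and 1 with block and ribosomal RNA covariate together, a fit added after seeing the data. At 0.25% against 1% it became 2 with the replicate block, 2 with block and covariate and 0 with the compared levels alone, and ran from 0 to 1 with 1 array left out. With the block the genes called over the whole array rose from 165 to 447 at 0.25% against 2%, from 50 to 397 at 0.5%, from 10 to 41 at 1%, from 4 to 17, from 39 to 109 and from 5 to 18 in the comparisons among lower levels. Members below 0 numbered 8 or 9 of 9 at 0.25% against 2%, and from 6 (median scaling) to 9 at 0.5%. Of all tested genes 54.1% were below 0 at 0.25% and 61.5% at 0.5% in the main fit, and nothing is read from these counts. The fit of array weights stopped before its tolerance was reached.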
